A study of Drosophila melanogaster with 3 samples.

Results

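The regions described here are ChIP-seq summits of CG8159-eGFP, a GFP-tagged fly protein still known by its annotation symbol, that lay in divergent protein-coding promoters, where 2 coding genes are transcribed away from each other from closely spaced start sites. A summit was included when it lay within 500 bp of a protein-coding start site and when that nearest start site had, within 500 bp upstream, a start site of another protein-coding gene on the opposite strand. Of the 10239 summits in the list that passed the irreproducible discovery rate (IDR) filter, which keeps peaks that recur between replicates, 682 met this rule, which is 6.66% of the list (95% Wilson interval 6.19 to 7.16%). They made up 23.5% of the 2904 summits within 500 bp of any protein-coding start site. The other 2222 such summits, called non-divergent below, had no opposite coding start within that distance upstream, and 7335 summits were near no coding start. Applied to the 10239 strongest peaks of each replicate, the rule found 806, 704 and 674 summits, or 7.11 ± 0.676% (SD, n = 3 replicates).

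Chromatin immunoprecipitation and sequencing had been carried out on whole Drosophila melanogaster pupae, in pools of both sexes, at a labelled age of 24 hours. All 3 samples belong to 1 group, biological replicates of a single transgenic line whose flies carry CG8159 with GFP at its C terminus, and sheared chromatin was precipitated with an antibody to GFP. No wild-type line, second condition or untagged precipitation was analysed here, and whole pupae mix many tissues, so binding in a few cells and weak binding in many cells cannot be told apart. The comparisons are therefore between classes of promoter within the same libraries. The IDR list was itself filtered for peaks that recur between replicates. Within it the rule uses only annotation and summit position. Signal, recurrence and sequence thus did not enter the split into divergent and non-divergent summits. The place of summits relative to both starts is set against the sequence in which the rule could have been met.

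In a divergent arrangement, the core promoters of both genes lie back to back, and the DNA between them is commonly free of nucleosomes. Such pairs are frequent in the compact fly genome and are rich in housekeeping genes, which encode proteins that most cells need. Their core promoters often carry the DNA replication-related element (DRE), bound by the factor Dref, or shorter sites of the boundary protein BEAF-32, rather than the TATA box or the binding site of GAGA factor that are typical of developmentally regulated genes.

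The sequences of 4 strongly bound pairs are shown first, because the results below turn on where a summit lies between the starts and on the base composition there. They are the strongest summits held by all 3 replicates that lay between starts close enough for the whole gap to be printed, with 1 chromosome arm left out of this choice. Each run is the top strand of the RefSeq release 6 assembly (dm6), 5′ to 3′, from the base after the start of the first gene, which is transcribed leftward, to the base before the start of the second, which is transcribed rightward. Capitals mark the 21 bases centred on the summit.
Art3 and mRpS10: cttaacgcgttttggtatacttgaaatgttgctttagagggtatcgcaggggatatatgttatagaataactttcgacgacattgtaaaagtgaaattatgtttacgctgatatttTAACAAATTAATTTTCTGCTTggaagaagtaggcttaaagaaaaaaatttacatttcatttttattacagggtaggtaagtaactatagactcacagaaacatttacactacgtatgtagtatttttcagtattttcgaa
Tcs5 and CHMP2B: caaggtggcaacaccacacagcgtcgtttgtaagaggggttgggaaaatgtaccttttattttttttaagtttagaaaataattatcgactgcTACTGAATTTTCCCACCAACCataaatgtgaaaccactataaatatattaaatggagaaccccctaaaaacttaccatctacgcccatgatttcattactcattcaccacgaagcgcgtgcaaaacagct
CG13390 and CG17294: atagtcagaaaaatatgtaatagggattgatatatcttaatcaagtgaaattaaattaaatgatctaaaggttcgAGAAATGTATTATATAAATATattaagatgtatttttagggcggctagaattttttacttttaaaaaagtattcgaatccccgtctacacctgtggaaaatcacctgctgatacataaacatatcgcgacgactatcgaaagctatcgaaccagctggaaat
CG3437 and CG3552: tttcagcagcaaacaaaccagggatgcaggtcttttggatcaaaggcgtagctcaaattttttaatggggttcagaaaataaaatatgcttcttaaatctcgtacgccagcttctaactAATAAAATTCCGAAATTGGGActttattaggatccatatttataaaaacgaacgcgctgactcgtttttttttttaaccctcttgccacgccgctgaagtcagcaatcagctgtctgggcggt
The Art3 and mRpS10 gap lies at chr3R:15229409-15229664, that of Tcs5 and CHMP2B at chr3L:5139396-5139618, that of CG13390 and CG17294 at chr2L:8376798-8377034, and that of CG3437 and CG3552 at chr3L:9457670-9457911. They were 69.9%, 61.9%, 69.2% and 59.9% A+T over their whole length. In each of them the summit lay well away from both starts, at base 127 of 256, 104 of 223, 86 of 237 and 130 of 242. On either strand, the BEAF-32 site, written CGATA, occurred 1, 1, 3 and 0 times in them, and the DRE, written TATCGATA, in none. A gap without a summit, that between MED7, which encodes a subunit of the Mediator coactivator, and Cap-H2, which encodes a condensin subunit, is shown after them. It had no summit in the IDR list or in the list called on pooled replicates. It was chosen after the values were seen, as the only such pair with a gap of over 200 to 300 bp, a DRE within 50 bp of its midpoint and a gene of the lists used below. It lies at chr3R:10761033-10761309 and is 65.3% A+T, and capitals mark its DRE. Since it was chosen for its DRE, the 4 bound gaps and this one are no comparison of motif content.
MED7 and Cap-H2: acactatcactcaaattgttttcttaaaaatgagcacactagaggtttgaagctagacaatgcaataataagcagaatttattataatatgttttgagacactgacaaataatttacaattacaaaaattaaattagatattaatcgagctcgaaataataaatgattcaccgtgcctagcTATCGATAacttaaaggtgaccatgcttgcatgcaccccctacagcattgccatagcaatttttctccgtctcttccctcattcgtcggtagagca

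Divergent pairs held a summit more often than other coding genes. The annotation contained 1972 divergent pairs, which include 3815 (27.4%) of its 13945 protein-coding genes. A summit lay in the 1001-bp window centred on the midpoint in 686 pairs (34.8%), whereas 1503 of 10130 genes outside any such pair (14.8%) had one in the same-sized window around their first start site. The difference was 19.9 percentage points (95% Newcombe interval 17.8 to 22.2, counting error only). With a largest gap of 250 bp for a pair it was 10.6 points. In the replicates the pairs were occupied in 39.4%, 36.6% and 34.9%, against 15.7%, 15.1% and 14.7% of the other genes, so the ranges did not overlap and the means were 37.0 ± 2.28% and 15.2 ± 0.480% (SD, n = 3). An exact 2-sided sign-flip permutation test over the 3 replicate differences gave p = 0.25, the smallest value that 3 replicates allow, so the replicates cannot pass 0.05 in this or any comparison below. A pair window covers 2 start sites. If each start were occupied independently at the rate of the other genes, 27.5% of windows would hold a summit, and in the replicates 28.9%, 28.0% and 27.3%, in each case below the value observed.

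The 682 summits belonged to 640 pairs with 1280 genes. Of these pairs 599 had 1 summit, 40 had 2 and 1 had 3. The pair with 3 was RN-tre and mam, whose second gene encodes the Notch coactivator mastermind, with signals of 503, 247 and 407 in the authors' units. Among the pairs with 2, the strongest summit after that at dbo and DCP2 lay between bmm, which encodes the lipase brummer, and Tdrd3, at a signal of 4754 with a second summit of 1846. The windows count slightly more pairs than the summits do since a window can also take in summits whose nearest start belongs to neither gene of the pair. Of the 1286 pairs without an IDR summit, 259 (20.1%) had one in the pooled list of 30000 peaks, compared with 17.6% of the other genes without an IDR summit. The top 10239 peaks of all 3 replicates placed a summit in 577 pairs, 567 of them among the 686 of the IDR list, and no replicate placed one in 1072 pairs.

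Most of the summits lay between the start sites, not inside either gene. In all, 495 of 682 (72.6%, 95% Wilson interval 69.1 to 75.8%) were between the paired starts, and the replicates gave 73.2%, 72.9% and 74.5%. That stretch formed 21.3% of the 2281 kb in which a summit could have met the rule. The density of summits was therefore 1.02 per kb between the starts, against 0.104 per kb in the transcribed flanks, a ratio of 9.80. Across replicates the densities were 1.10 ± 0.0989 and 0.107 ± 0.0123 per kb (SD, n = 3), with lowest values of 1.04 between the starts and highest values of 0.120 in the flanks. The other 187 summits lay downstream of their nearest start, at a median of 74 bp (quartiles 37.5 and 142 bp), and none fell on the start base itself.

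Set beside non-divergent promoters, the excess was largest upstream, where a base between paired starts lies upstream of 2 genes. No density for 2 independent starts was computed. Within 250 bp upstream of the nearest start, divergent promoters had 1.02 summits per kb and non-divergent promoters 0.317, a ratio of 3.22 (3.79, 3.12 and 3.18 in the replicates). Downstream the ratio was 1.70 over the first 250 bp (1.83, 1.67 and 2.06), with 0.170 per kb in divergent and 0.0998 in non-divergent promoters. Beyond 250 and up to 500 bp downstream the order turned round, with 0.0297 per kb in divergent and 0.0480 in non-divergent promoters and a ratio of 0.619 (0.458, 0.486 and 0.477). The exact sign-flip permutation test on the log ratios gave p = 0.25 for each of the 3 intervals. The highest density of divergent promoters, 2.08 per kb, stood in the bin that ends 150 bp upstream and spans 50 bp, where non-divergent promoters had 0.374 per kb. Only pairs with a gap of about 200 bp or more contain sequence that far from both starts, so the profile joins pairs of different gaps.

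**Figure D1:**
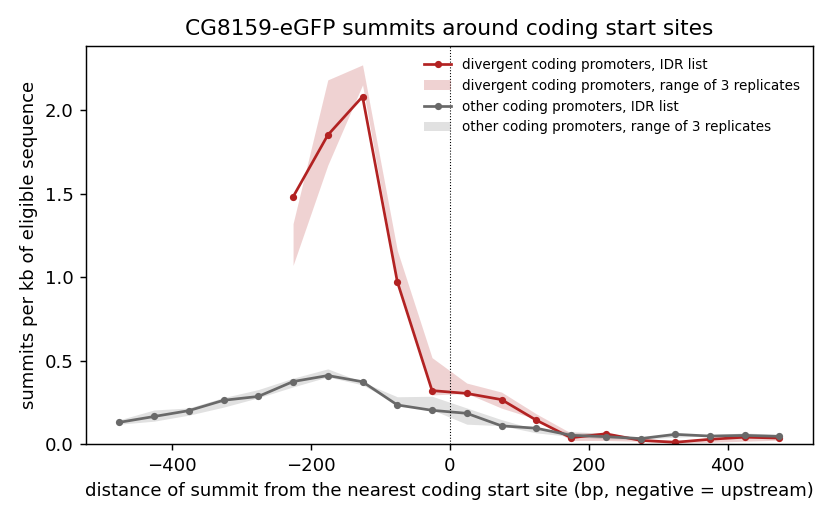
Density of summits per kb of eligible sequence, in 50-bp bins by distance from the nearest protein-coding start, for divergent (red) and non-divergent (grey) promoters; lines with points are the IDR list and bands the range of the 3 replicates. The red line ends about 250 bp upstream because a base farther away is nearer to the partner's start, and it peaks at 2.08 per kb, against 0.374 per kb for the grey line in the same bin.

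The gap between the starts marked off where summits were found. Pairs with gaps of 1 to 100, over 100 to 200, over 200 to 300, over 300 to 400 and over 400 to 500 bp were occupied in 25.5%, 25.1%, 42.1%, 44.3% and 33.8%. In the replicates the means were 27.8 ± 2.35%, 26.4 ± 1.30%, 45.0 ± 2.04%, 45.3 ± 3.20% and 37.4 ± 3.57% (SD, n = 3). The 2 classes from over 200 to 400 bp thus stood above both shorter classes in every replicate, while they did not differ from each other by more than their spread. Even the pairs under 200 bp were occupied more often than the 14.8% of non-divergent genes, with a lowest replicate value of 25.5%. Apart from replicate 1 at gaps of 1 to 100 bp, which had 30.2%, these short classes were not above the value computed for 2 independent starts in the same list. The median gap was 284 bp for the summits (quartiles 210 and 367 bp), compared with 244 bp over all 1972 pairs. These are unlike measures, because a pair's gap is that of its closest starts. A summit's gap is taken at its own nearest start and can be larger.

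**Figure D2:**
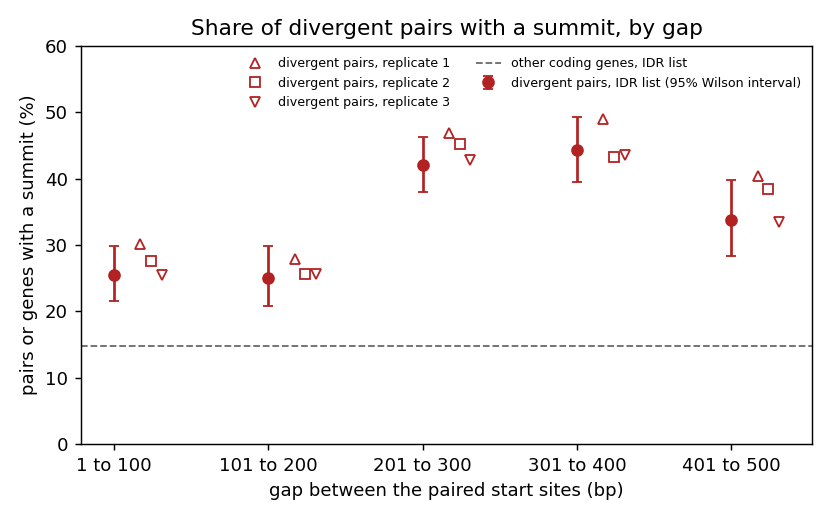
Share of divergent pairs with a summit in the 1001 bp around their midpoint, by gap; filled points are the IDR list with 95% Wilson intervals, open symbols the 3 replicates, and the dashed line the 14.8% of other coding genes. Occupancy was 25.5% and 25.1% in the shortest classes and 42.1% and 44.3% in the classes from over 200 to 400 bp.

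In short gaps the summit lay inside a gene more often than in the gap. Of the 79 summits at gaps of 1 to 100 bp, 10.1% lay between the starts, where 6.79% of the eligible sequence lay. In the following classes it was 48.1% of 79, 88.8% of 224, 83.2% of 190 and 83.6% of 110, from shorter to longer gaps. The replicate means were 13.9 ± 0.611%, 47.3 ± 3.63%, 88.3 ± 1.81%, 85.9 ± 1.97% and 83.9 ± 5.26% (SD, n = 3). The median summit accordingly lay 74 bp downstream of its nearest start in the shortest gaps, and at −97.5, −122 and −150 bp, that is upstream of it, in the 3 longest classes. The density between the starts was highest at gaps of over 200 to 300 bp, with 1.39 per kb between them and 0.0480 per kb in the flanks. The signal followed the same order, with medians of 535, 598, 815, 680 and 601 from the shortest to the longest gaps.

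Within the gap, summits gathered at the middle, most clearly at gaps of over 200 to 300 bp. Of the 495 summits between starts, 411 (83.0%, 95% Wilson interval 79.5 to 86.1%) were nearer to the midpoint than to either start. The replicates gave 76.6%, 77.8% and 83.1%. These central stretches make up as much of a gap as the stretches nearer the starts. The share was 75.0% of 8 at gaps of 1 to 100 bp and 60.5% of 38 at gaps of over 100 to 200 bp. It was 91.5% of 199 at gaps of over 200 to 300 bp, 82.9% of 158 in the next class and 75.0% of 92 in the longest. The distance to the nearest start was not fixed, since its median was 47.5 bp at gaps of over 100 to 200 bp and 100, 133 and 160 bp in the longer classes. The authors' summit is the base of highest signal, and the same base was found within 20 bp in 61.9%, 58.4% and 65.3% of the summits matched in replicates 1, 2 and 3.

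**Figure D3:**
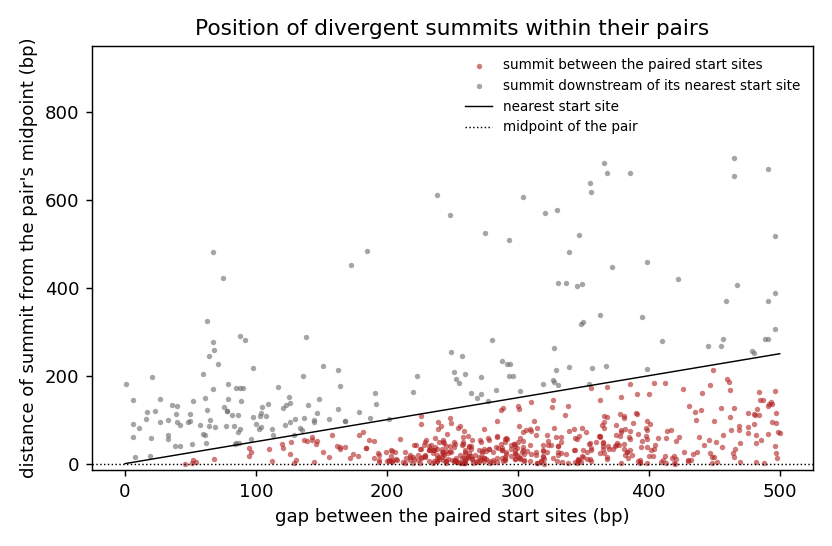
Position of each of the 682 summits, as distance from the pair's midpoint (vertical axis, bp) against the gap between the starts (horizontal axis, bp); the dotted line is the midpoint and the solid line the nearest start. The 495 red points between the starts lie near the midpoint from gaps of about 200 bp upward, and the 187 grey points lie inside a gene.

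A peak often spanned the whole promoter pair. Of the 682 peak intervals, 284 (41.6%) covered both starts, 253 covered 1 and 145 covered neither. Intervals were 416 bp wide at the median and exactly so in 51.5%, and width is not read as the extent of binding. An interval that covers both starts does not tell which gene is bound, and 3 summits lay at equal distance from both. Values just inside and outside the rule were also read. The summit 500 bp from CG42637 (partner SREBP) had a signal of 398, and the summit 503 bp from mats (partner Nop56) had 585. The pair Polr2I and su(Hw), with a gap of 500 bp, had 664, and the pair CG9853 and CG14647, at 501 bp, had 593.

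Divergent summits were stronger than non-divergent ones. Their median signal was 670 (quartiles 414 and 1305) in the authors' units, against 520 (334 and 1128) for the 2222 non-divergent summits, a ratio of 1.29. In the replicates, whose scale differs, the medians were 261, 189 and 216 for divergent summits and 223, 151 and 167 for non-divergent ones, so the ratio was 1.17, 1.25 and 1.30 (mean 1.24 ± 0.0638, SD, n = 3; exact sign-flip p = 0.25). The ranges of signal overlap almost entirely, and the highest single values were 11169 for divergent and 15635 for non-divergent summits. Of the divergent summits 63.2% were above the median of the whole list, and of the non-divergent ones 49.3%. Summits between starts had a median of 728, while the 187 others had 526, close to the non-divergent value.

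Recurrence across replicates is what the IDR filter selects for, so only its difference between classes is described. The strongest peaks of all 3 replicates overlapped 564 of 682 divergent peaks (82.7%), against 1705 of 2222 non-divergent ones (76.7%) and 78.3% of the whole list. The difference of 5.97 percentage points (95% Newcombe interval 2.49 to 9.17) turned to −2.22 points when all deposited peaks of each replicate counted. It was 9.64 points with summits within 250 bp of a start, 3.96 with a largest gap of 250 bp and 3.31 with a stricter overlap required of both peaks. The summits near coding starts were also split into 4 equal groups by signal. From weak to strong, 33.9%, 84.3%, 94.0% and 97.9% of divergent peaks recurred, against 32.4%, 86.1%, 95.5% and 99.6% of non-divergent peaks. The divergent share was thus the higher one in the weakest group and the lower one in the other 3. With replicate 1 left out, the difference in recurrence in the remaining replicates was 3.05 points. Of the remaining divergent peaks 84 recurred in 2 replicates, 31 in 1 and 3 in none, and 638 had an overlap in all 3 full lists of 30000 peaks.

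The strongest divergent summit lay 127 bp from the start of Art3, an arginine methyltransferase gene, and 130 bp from that of mRpS10, which encodes a protein of the small mitochondrial ribosomal subunit (peak at chr3R:15229326-15229750). Its signal was 11169, rank 14 in the IDR list, and it ranked 25, 8 and 10 in replicates 1, 2 and 3 with signals of 4016, 3548 and 3658. Next came the pair CG18428 and eIF4EHP, a cap-binding repressor of translation, with a signal of 10836 in a gap of 376 bp and ranks of 15, 21 and 11. Both were among the 25 strongest peaks of every replicate, with the replicate summits within 6 bp of the IDR summit. The summit of dbo and DCP2, the mRNA decapping enzyme, had a signal of 9920 and lay 422 bp inside dbo, and its ranks of 6, 107 and 63 were the least alike of the first 3. The pair Tcs5 and CHMP2B, a component of the membrane-cutting ESCRT machinery, had 9050 and ranks of 43, 24 and 25. Chro and Ssl1, which encode the chromosome architecture protein Chromator and a subunit of the general transcription factor TFIIH, had 8927 and ranks of 46, 28 and 28, with the summit 76 bp inside Chro at a gap of 105 bp.

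The next of the 12 strongest continued this pattern of summits about 100 bp from a start. CG13390 and CG17294 had a signal of 8597 at 86 bp upstream of the nearest start, CenG1A and mRpS23 (another mitochondrial ribosomal protein) 8413 at 110 bp, CG5611 and Mtl (a Rac-type GTPase) 8115 at 104 bp, and JMJD7 and CG10738 7697 at 98 bp. Pal1, which encodes an enzyme of peptide amidation, and Pdrg1 had 7690 at 165 bp upstream, and CG12159 and Cul1, the cullin scaffold of SCF ubiquitin ligases, had 7050 at 127 bp upstream. The pair CG11309 and CG7632 had 8147 and a gap of only 39 bp, and its summit lay 94 bp inside CG11309. Of these 12 summits 9 lay between the starts, and all 3 that did not were in a gene, at 76, 94 and 422 bp. Their A+T within 50 bp of the summit was between 64.4% (CG12159) and 83.2% (CG18428 and CG5611).

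Divergent summits sat in A+T-rich DNA. Within 50 bp to each side of the summit, A+T averaged 70.0% at divergent and 65.2% at non-divergent summits. The replicates gave 68.9%, 69.2% and 70.0% for divergent and 64.9%, 64.1% and 65.7% for non-divergent summits, a mean difference of 4.48 ± 0.558 points (SD, n = 3; exact sign-flip p = 0.25). With a largest gap of 250 bp the difference in the IDR list was 2.93 points. The promoters themselves differed by about as much, because the midpoints of all 1972 pairs were 66.4% A+T and the windows centred 100 bp upstream of the 10130 other genes 61.0%. Among divergent summits, the 495 between starts stood at 72.1% and the 187 inside a gene at 64.7%. The 7335 summits away from coding starts had 68.9%.

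Occupied pairs were richer in A+T than unoccupied pairs of the same kind. The midpoints of the 686 occupied pairs were 69.5% A+T and those of the 1286 others 64.8%, a difference of 4.68 points that was 5.13, 4.67 and 4.44 in the replicates (exact sign-flip p = 0.25). A difference of like size was measured at gaps of over 200 to 400 bp, where the means were 74.4% for occupied and 70.4% for unoccupied pairs, and the replicate differences were 4.27, 4.08 and 3.59 points. Occupancy was 24.0% of 167 pairs under 50% A+T, 23.2% of 423 from 50 to 60%, 29.0% of 493 from 60 to 70%, 44.9% of 700 from 70 to 80% and 48.1% of 189 at 80% or more. The replicate means were 25.3 ± 1.51%, 24.5 ± 0.760%, 32.4 ± 1.95%, 46.3 ± 3.23% and 52.6 ± 3.97% (SD, n = 3). The step lies between 60 to 70% and 70 to 80%, and the lowest pair of classes did not differ beyond its spread.

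Core promoter motifs were searched on both strands of the same windows of 50 bp to each side, with overlaps between motifs allowed, and a match describes the letters only. At the midpoints, the DRE (TATCGATA) was present in 3.35% of occupied and 8.01% of unoccupied pairs, a difference of −4.66 points (95% Newcombe interval −6.61 to −2.53). The shorter BEAF-32 site (CGATA), which is contained in every DRE, was present in 18.7% of occupied and 31.8% of unoccupied pairs, a difference of −13.1 points (−16.9 to −9.18). Across replicates the DRE was in 3.79 ± 0.287% of occupied and 7.91 ± 0.188% of unoccupied pairs, and the BEAF-32 site in 20.0 ± 0.712% and 31.5 ± 0.107% (SD, n = 3), so both gaps exceeded the spread. Put the other way, 23 of the 126 pairs with a DRE were occupied (18.3%, 95% Wilson interval 12.5 to 25.9%), against 35.9% of the 1846 without one. Motif 1 (GGTCACACT) was in 1.46% of occupied and 3.42% of unoccupied pairs, and the E-box CAGCTG in 5.39% and 9.18%. The intervals of the difference excluded 0 for 9 of the 13 motifs over all gaps. Fewer did so at the longer gaps described next.

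The differences in DRE and BEAF-32 site shares were smaller at longer gaps. At gaps of over 200 to 400 bp the DRE was in 1.00% of 400 occupied and 1.70% of 530 unoccupied pairs, and the interval of the difference, −2.32 to 1.04 points, included 0. The BEAF-32 site was in 9.75% of occupied and 15.7% of unoccupied pairs there, a difference of −5.91 points (−10.1 to −1.55; −4.87 to −3.98 in the replicates). For the DRE no difference could be detected there with 13 pairs carrying it. The BEAF-32 site was not alone in this. At these gaps the Pho site (GCCAT) was in 8.50% of occupied and 13.4% of unoccupied pairs, a difference of −4.90 points (−8.84 to −0.793; −5.50 to −2.75 in the replicates), and CAGCTG was in 3 of 400 occupied and 18 of 530 unoccupied pairs, a difference of −2.65 points (−4.62 to −0.754). The TATA box (TATAAA) went the other way. It was in 29.7% of occupied and 19.5% of unoccupied pairs, and in 37.8% and 25.3% at gaps of over 200 to 400 bp, where the difference was 12.5 points (6.45 to 18.5; 9.69 to 11.2 in the replicates). Motif 1, CACGTG, the initiator (TCAGT) and the A tract (AAAAAAAA) had intervals excluding 0 over all gaps but including 0 at these gaps. Motif 1 was there in 0 of 400 occupied and 1 of 530 unoccupied pairs (−1.06 to 0.775 points). Occupied pairs were 74.4% and unoccupied pairs 70.4% A+T at these gaps. Whether the share of any motif differs at equal A+T was not tested.

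**Figure D4:**
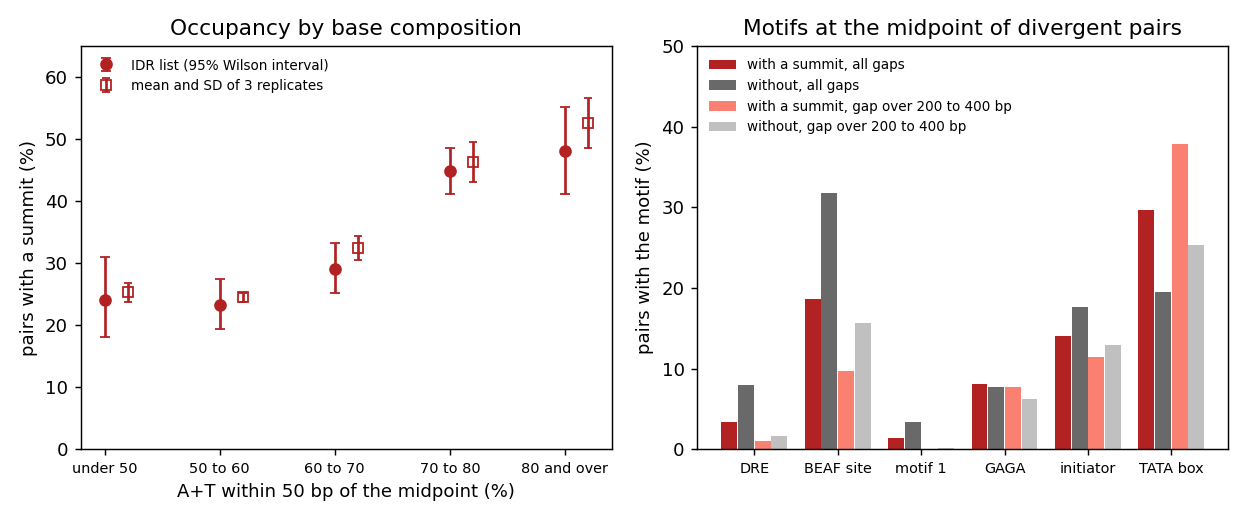
Left, share of divergent pairs with a summit (%) by A+T within 50 bp of their midpoint, with 95% Wilson intervals (filled) and mean and SD of 3 replicates (open). Right, share of pairs whose midpoint window holds each motif (%), for pairs with and without a summit over all gaps and for gaps of over 200 to 400 bp; BEAF-32 sites stood at 18.7% and 31.8% over all gaps, and TATA boxes at 29.7% and 19.5%.

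Between the classes of summit, 3 of the 13 motifs differed beyond counting error. The TATA box was in 30.5% of divergent and 23.1% of non-divergent summit windows, a difference of 7.37 points (95% Newcombe interval 3.57 to 11.3). The GAGA site (GAGAG) was in 7.92% of divergent and 12.8% of non-divergent windows, a difference of −4.86 points (−7.18 to −2.24), and the initiator (TCAGT) in 13.0% and 16.6%, a difference of −3.56 points (−6.38 to −0.441). All replicates gave the same direction for these 3. The initiator difference was −1.67 points in the stronger part of the list and −1.63 with a largest gap of 250 bp. Promoters of both kinds differed likewise before any summit was considered, because the TATA letters were in 23.1% of all pair midpoints and 16.2% of all other promoters, and GAGAG in 7.86% and 15.3%. For the initiator these background shares were both 16.5%. For the other motifs the interval in the IDR list included 0, among them the DRE at 1.76% of divergent and 1.08% of non-divergent windows and the BEAF-32 site at 16.1% and 14.4%. In the replicates these 2 differences were larger and of 1 sign, with the DRE in 3.06 ± 0.212% of divergent and 1.33 ± 0.197% of non-divergent windows and the BEAF-32 site in 19.3 ± 1.09% and 14.5 ± 0.828% (SD, n = 3; exact sign-flip p = 0.25 for each). Promoters differed in the same direction before any summit was considered, with the DRE in 6.39% of all pair midpoints and 2.15% of all other promoters, and the BEAF-32 site in 27.2% and 18.3%.

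Gene lists showed which kinds of pair were occupied, read against the 34.8% of all pairs. Unless a gap is named, their shares cover all gaps, and lists were not matched for gap. Pairs with a cytosolic ribosomal protein gene were occupied in 27 of 36 cases (75.0%, 95% Wilson interval 58.9 to 86.2%; 79.6 ± 3.21% in the replicates, SD, n = 3). The 52 ribosomal protein genes outside pairs were occupied at a like level, 40 of 52 or 76.9%. In the replicates the pairs stood somewhat higher, at 77.8%, 83.3% and 77.8%, against 73.1%, 67.3% and 69.2% of the genes outside pairs. This list was thus highly occupied with or without a divergent partner. Its strongest summits lay at RpS21 with CG3104, at a signal of 2856, and at RpL34b with CG8132, at 2070. Unoccupied pairs included those of RpS13, RpS19b, RpS28a and RpL13A.

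Over all gaps, mitochondrial ribosomal protein genes stood closer to the share of all pairs. Of their pairs 24 of 55 were occupied (43.6%, 31.4 to 56.7%; 45.5 ± 3.15% in the replicates), against 3 of 21 genes of the list outside pairs (14.3%). Besides mRpS10 and mRpS23 above, the pairs with mRpL23, mRpL24 and mRpS2 had signals of 5127, 4134 and 2359. Of the summits between starts, the nearer start was that of the cytosolic ribosomal protein gene in 15 of 18, against 5 of 19 for the mitochondrial list, where the partner's start was nearer in the rest. The replicates gave 20 of 26, 18 of 20 and 18 of 22 for the cytosolic list and 9 of 22, 7 of 19 and 6 of 19 for the mitochondrial list, so the shares did not overlap. No test beyond these counts was made.

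Lists of the gene expression machinery had higher shares in pairs than among genes outside pairs, as had all features together, at 34.8% of pairs and 14.8% of other genes. Whether the lists differ from that background was not tested. Aminoacyl-tRNA synthetase genes, whose products charge tRNAs, had 12 of 24 pairs occupied, against 1 of 12 genes outside pairs (8.33%). Their strongest summits were at IleRS with Hem (2421) and GluProRS with AP-1sigma (1661). Mediator and TBP-associated factor genes had 13 of 27 pairs (48.1%) and 2 of 16 other genes (12.5%), led by Taf2 with CalpB (3644) and Taf5 with Pex6 (3163), whose partner encodes a peroxisomal import factor. RNA polymerase subunit genes had 9 of 21 pairs (42.9%) and 0 of 11 other genes, which allows a share of up to 27.3%, and the replicates placed 0.00%, 9.09% and 0.00% there. Their leading pairs were Polr3E with CG10584 (3005) and Polr2B with 140up (2182). For translation initiation factors it was 7 of 19 pairs (36.8%) and 5 of 26 other genes (19.2%), with eIF3h and senju (974) after eIF4EHP, and both shares are near the background.

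Lists of protein turnover and organelles were mixed. Autophagy genes had 9 of 12 pairs occupied (75.0%, 46.8 to 91.1%; 69.4 ± 4.81% in the replicates) and 2 of 8 other genes, with Atg2 and CG12093 at 2345 and Atg4b, a protease that processes Atg8, with Hibch at 1903. The 3 unoccupied pairs were those of Atg5, Atg8a and Atg10. Proteasome genes had 8 of 21 pairs (38.1%) and 2 of 11 other genes (18.2%), led by Rpn3 with l(2)37Bb (1037) and Prosbeta2 with mRpL39 (941). Genes of oxidative phosphorylation had 12 of 37 pairs (32.4%) and 4 of 39 other genes (10.3%), led by ND-MWFE with TppII (2210) and ND-42 with Cchl (1194). The pair share of these last 2 lists was close to that of all pairs. The oxidative phosphorylation list is incomplete. It lacks, for example, ND-B17.2, whose pair with Arpc5 had a summit of 310, and no share with the missing genes was computed. Peroxisome biogenesis genes had 4 of 8 pairs and 3 of 5 other genes, with Pex10 and CG12099 at 1221 after Pex6. This list leaves out the Pex11 genes, of which Pex11ab with CG8320 had a summit of 5757 and Pex11c with wda 1 of 1099.

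A further 3 lists stood lower against the 34.8% of all pairs in the IDR list, but 2 of them were near all pairs in the replicates. Rab and Vps trafficking genes had 7 of 29 pairs occupied (24.1%) and 5 of 26 other genes (19.2%), led by Vps33B with Fur1 (3101) and Rab39 with Pdp (783). In the replicates this list stood at 36.8 ± 3.98% of pairs, against 37.0 ± 2.28% of all pairs (SD, n = 3). Vacuolar proton pump genes had 3 of 13 pairs (23.1%) and 3 of 20 other genes (15.0%), led by Vha100-2 with Vti1b (4539) and Vha68-1 with mTor (1061), and in the replicates it stood at 35.9 ± 4.44% of pairs. DNA replication licensing genes had 2 of 11 pairs (18.2%; 21.2 ± 5.25% in the replicates) and 1 of 10 other genes. The occupied pairs were those of Psf1, at a signal of 310, and Cdc45, at 262, both under the median of 670. A summit of 318 at dup (the fly Cdt1) and SRPK met the rule through start sites with a gap of 461 bp, while the window of that pair, centred between starts with a gap of 110 bp, held none.

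Genes of chromosome architecture included some of the strongest summits. Of 8 pairs with an insulator or architectural protein gene 6 were occupied (75.0%, 40.9 to 92.9%), and 2 of 9 other genes. Their median signal was 2662 over 6 summits, compared with 670 for all divergent summits, but none of the 6 lay near that median. The stronger ones were at Chro (8927), at Cp190, a cofactor of several insulator complexes (5111), and at M1BP, the factor that binds motif 1 (4660). The others were all below 670. They were at su(Hw) with Polr2I (664), at Dref with RpL13 (643), and at pzg, whose product acts with Chromator, with CG12974 (616). In the IDR list, all 4 of the 6 summits that lay between starts were nearer to the partner than to the listed gene. In replicates 1, 2 and 3 the listed gene was the nearer one in 2 of 4, 1 of 4 and 0 of 3. The pair Ibf1 and Ibf2, in which both genes are on this list, had no summit.

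Lists of tissue-specific or stage-specific genes held no occupied pair. None of 20 pairs with a chemosensory receptor or odorant binding protein gene had a summit, which allows a share of up to 15.0%, and 4 of the 207 other genes of the list (1.93%) had one. The list contains 5 pairs of 2 listed genes, among them Gr58a with Gr58b and Obp50a with Obp50b. Cuticle protein genes had 2 pairs, both unoccupied, and 2 of 117 other genes (1.71%) were occupied. The 16 ecdysone response genes formed no divergent pair at all, and 8 of them were occupied outside pairs, so this list had summits but none among the divergent ones.

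**Figure D5:**
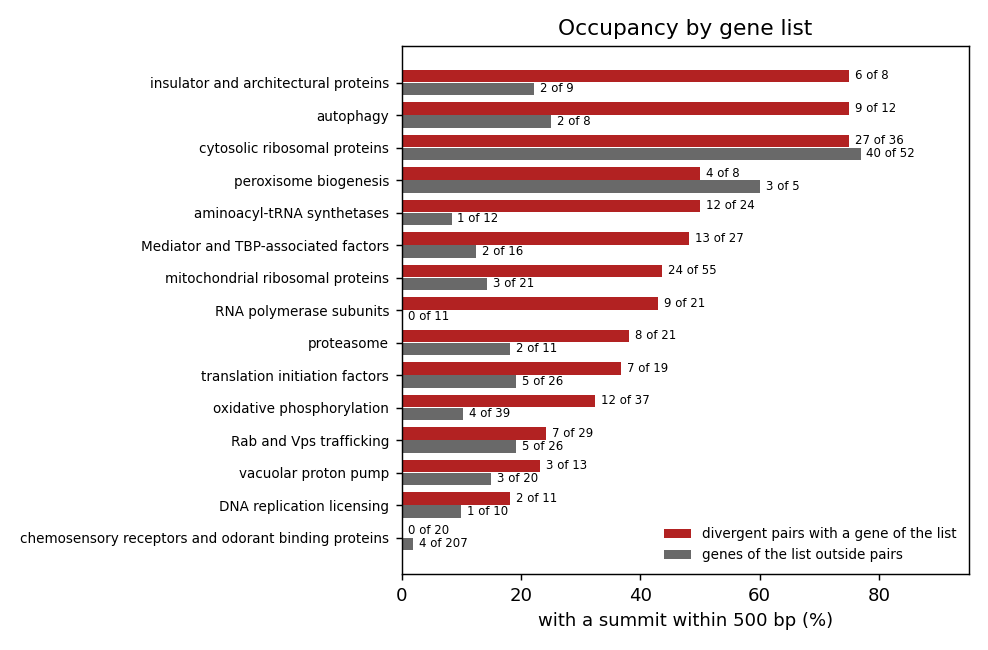
Share (%) of divergent pairs with a gene of each list that had a summit (red), and of genes of the same list outside pairs (grey), for lists with 8 or more pairs; counts are printed beside the bars. Cytosolic ribosomal protein genes stood at 75.0% in pairs and 76.9% outside, whereas aminoacyl-tRNA synthetase genes stood at 12 of 24 and 1 of 12.

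Occupied pairs were spread over the genome. The share was 35.3% of 388 pairs on 2L, 31.9% of 376 on 2R, 39.5% of 392 on 3L, 35.3% of 521 on 3R and 30.6% of 288 on X, and 2 of 7 pairs on chromosome 4 were occupied. In the replicates 3L had 41.8 ± 3.06% and X 32.3 ± 3.42% (SD, n = 3), the highest and lowest means of the 5 large arms. The median signal of the summits was lowest of these arms on X, at 486, and stood at 794 on 2L and 790 on 3L. Genes outside pairs did not follow this order, with 14.8% on 3L and 17.1% on X.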

How the data were processed

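ChIP-seq was available for 3 biological replicates of 1 line; the antibody label names CG8159 and the sample description GFP, and the description was followed. Per the deposited file names there was 1 peak list for each replicate, 1 on pooled replicates and 1 kept by the IDR procedure, with dm6 as the assembly per the labels. Aligner, caller and IDR threshold were not given in the sources used here. Without read numbers the depth is unknown. Each peak carries the signal and the −log10 q-value that the authors deposited. Signal describes and ranks peaks within a list only, since its scale differs between lists, and the q-values were not used. The deposited p-value column held no values. Another deposited column, the summit offset, gave the summit base.

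Start sites came from the Ensembl release 115 annotation on 6 chromosome arms, and sequence from RefSeq release 6. Replicates entered as their 10239 strongest peaks, and overlap meant at least 1 bp. A peak was matched to the closest replicate summit. Shares have 95% Wilson intervals and differences Newcombe intervals, which cover counting error only, and neighbouring promoters can share a peak. Replicates share 1 control alignment and 1 line, so their spread covers separate collections of that line. Differences were tested by exact sign-flip permutation over 3 replicates. Scripts (Python 3.11.15, NumPy 2.4.6, pandas 2.3.3, SciPy 1.17.1) were tested on simulated data.

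The members, the 17 gene lists and the 13 motifs were chosen with earlier results of these data known. Genes named are those of the 12 strongest recurring summits, summits next to each threshold and pairs with most summits. Also named are the 2 strongest of each list with at least 3 summits, and pairs within a list. Named after their values were seen were mRpL23, mRpL24, mRpS2, Cdc45, ND-B17.2, the Pex11 genes, the further insulator genes, bmm and the unoccupied pairs. Alternatives are given in the closing section.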

Additional observations from a re-analysis of the deposited data

How the results depend on the processing

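Of 146 alternative values, 124 kept their direction and, where there was no test, stayed within the spread. The share of summits in divergent promoters was 8.42% in the stronger part of the list and 2.46% with a largest gap of 250 bp, which admits fewer pairs. The share between the starts was 78.4% in the stronger part of the list and 75.3% with summits within 250 bp of a start, and 73.3 to 74.5% with each replicate left out. The difference in recurrence was 9.64 points with summits within 250 bp of a start, and −2.22 points when all deposited peaks of each replicate counted. The cause was not tested in any of these. For motif shares (divergent minus non-divergent, in points) 14 of 91 alternatives turned the sign, all in motifs whose interval included 0. In the stronger part of the list they were −0.0501 for the BEAF-32 site, −0.0142 for CAGCTG, −0.0422 for the Zelda site and 0.295 for the AP-1 site. With summits within 250 bp they were −0.00295 for CAGCTG, −0.580 for the Pho site and 0.378 for the A tract. With gaps up to 250 bp they were −0.151 for the NRF1-type site, −0.302 for the Zelda site and 0.817 for the A tract. In windows of 100 bp to each side they were 0.579 for CACGTG and −0.0436 for the Zelda site. With each replicate left out CAGCTG ranged from −0.252 to 0.806. Of the comparisons of occupied with unoccupied pairs, all chosen after the data were seen, those of the DRE, the BEAF-32 site and A+T kept their direction in every alternative run, although the DRE difference shrank to −0.698 points at gaps of over 200 to 400 bp. Those of the other motifs were recomputed only at these gaps and in each replicate.

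No paired analysis was possible because all samples belong to 1 group, so no 2 groups of samples share replicate numbers; the sign-flip tests pair classes of promoter within each replicate. The lists lack read numbers, the replicates are 1 line, no untagged control was analysed here, and summits repeat between replicates only to a median of 13 to 15 bp. The lists named here are small, so several of their shares have wide intervals.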
